A study of Mus musculus with 2 samples.

Results

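The miR-23, miR-27 and miR-24 clusters are a pair of short gene clusters, on chromosomes 8 and 13, that each encode 1 hairpin of the miR-23, miR-27 and miR-24 families. The members described here were chosen by gene symbol in GENCODE release M21: Mir23a, Mir27a and Mir24-2 on chromosome 8, Mir23b, Mir27b and Mir24-1 on chromosome 13, and Mir3074-1, the gene annotated opposite Mir24-1. They are 7 of the 2202 microRNA (miRNA) genes counted in each library. A miRNA is a short RNA cut from a hairpin; it guides a silencing complex to messenger RNAs that pair with its seed, bases 2 to 8 from its 5′ end. Hairpins of such a cluster are taken to arise from 1 primary transcript and are then cut out one by one. The clusters are known from endothelial cells, where they have been linked to blood vessel growth. miR-23 is known for targeting glutaminase, miR-27 for restraining fat cell formation, and miR-24 has been reported, in human adrenocortical cells, to target the genes of aldosterone and cortisol synthase.

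The mice were males of the hybrid strain B6CASTF1/J, a first-generation cross of C57BL/6 with CAST/EiJ, aged 10 days, and small RNA was sequenced from their adrenal glands. This organ joins a cortex that makes steroids to a medulla of chromaffin cells. Both libraries belonged to a single group, labelled biological replicates 1 and 2, which come from males numbered separately under a shared donor record. No treatment and no second genotype, age or sex was present, so the members were compared with each other within a library and replicate 1 was set against replicate 2. Replicate 1 held 7503044 reads, of which 2843734 were assigned to a miRNA gene on its own strand, and replicate 2 held 8907701 reads with 3080062 assigned. Levels are in CPM, a gene's own-strand counts per 1000000 such counts in the library, not divided by gene length, given as mean ± SD (n = 2). The marker lists held no miRNA specific to the cortex. The neuroendocrine list (Mir375, Mir7-1 and Mir7b) had a summed level of 39806 CPM in replicate 1 and 37748 CPM in replicate 2. Mir122, the miRNA of hepatocytes, had 29424 CPM in replicate 1 and 97850 CPM in replicate 2.

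The mature sequences show which members can be told apart by their reads. They are shown 5′ to 3′ with the seed in capitals, from RefSeq annotation of GRCm38.p6, the build also called mm10.
miR-23a-3p: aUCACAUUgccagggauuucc
miR-27a-3p: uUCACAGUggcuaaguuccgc
miR-27b-3p: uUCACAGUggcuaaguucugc
miR-24-3p, from Mir24-2 and Mir24-1: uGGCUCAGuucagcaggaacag
miR-24-2-5p: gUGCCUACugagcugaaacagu
miR-24-1-5p: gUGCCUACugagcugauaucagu
miR-3074-5p, from Mir3074-1: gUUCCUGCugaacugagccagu
miR-27a-3p and miR-27b-3p carry the same seed and differ by C19U, counted from the 5′ end with the miR-27a-3p base first. The hairpins of Mir23a and Mir23b share a run of 20 bases, as do those of Mir27a and Mir27b. A read that lies wholly in such a run maps to both genes of a pair. The annotation used held no 3p mature sequence for Mir23b, so none is shown and the miR-23 pair is compared here by hairpin only. miR-24-3p is the same 22 bases from both loci. miR-24-2-5p and miR-24-1-5p share the seed but part further on, with a longest common run of 16 bases.

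The hairpins of Mir24-2 and Mir24-1 are given whole because they show where a read can be placed. Capitals mark the longest run that both hold, 28 bases, and miR-24-3p lies inside it.
Mir24-2, chr8:84208815-84208921, plus strand: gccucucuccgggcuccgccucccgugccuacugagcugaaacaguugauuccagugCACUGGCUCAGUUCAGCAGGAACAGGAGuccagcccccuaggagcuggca
Mir24-1, chr13:63301208-63301275, plus strand: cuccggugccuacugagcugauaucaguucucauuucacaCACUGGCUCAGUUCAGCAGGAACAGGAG
A read that lies wholly in this run maps to both loci, and the files list reads with several places in a row of their own and give them to no gene. The counts of Mir24-2 and Mir24-1 therefore hold no read that lies wholly in this run, and they set no level for miR-24-3p. The marked run stops at the last base of the annotated Mir24-1 hairpin. Mir3074-1, which reaches past that base, held 13 runs of 18 bases found at another locus, as did Mir24-2, against 11 for Mir24-1. A read that reaches just past the 3′ end of the marked run may therefore still map to both loci. Which part of a hairpin a read came from is not recorded in these counts. Over all genes 2065487 reads of replicate 1 and 2308583 reads of replicate 2 mapped to several places, and how many of them belonged to miR-24-3p is not analysed here. Of 2202 counted hairpins, 51.5% share a run of 18 bases with a hairpin at another locus, and among the 190 genes with at least 100 CPM in both libraries 24.7% do. Of 1678 annotated mature sequences, 131 occur whole in a hairpin at another locus.

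The chromosome 8 cluster spans 404 bp of the plus strand. Mir23a (ENSMUSG00000065611.1) lies at chr8:84208518-84208592, Mir27a (ENSMUSG00000065444.1) at chr8:84208672-84208758, and Mir24-2 (ENSMUSG00000065541.1) starts 56 bp further on. No protein-coding gene overlaps it, and the last 2 bases of Mir24-2 overlap the noncoding gene Gm26532. The chromosome 13 cluster spans 792 bp inside 2010111I01Rik, a protein-coding gene on the same strand. Mir23b (ENSMUSG00000065599.2), at chr13:63300484-63300557, lies in its intron. Mir27b (ENSMUSG00000065475.2), at chr13:63300712-63300784, lies within an exon of one of its transcripts, annotated as subject to nonsense-mediated decay. Mir24-1 (ENSMUSG00000105904.1) is overlapped over all its 68 bases by exons of transcripts annotated as non-coding or decayed. Mir3074-1 (ENSMUSG00000092741.2), at chr13:63301199-63301283 on the minus strand, covers Mir24-1 and lies in an intron of Fancc, a gene of the Fanconi anaemia DNA repair pathway.

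**Figure D1:**
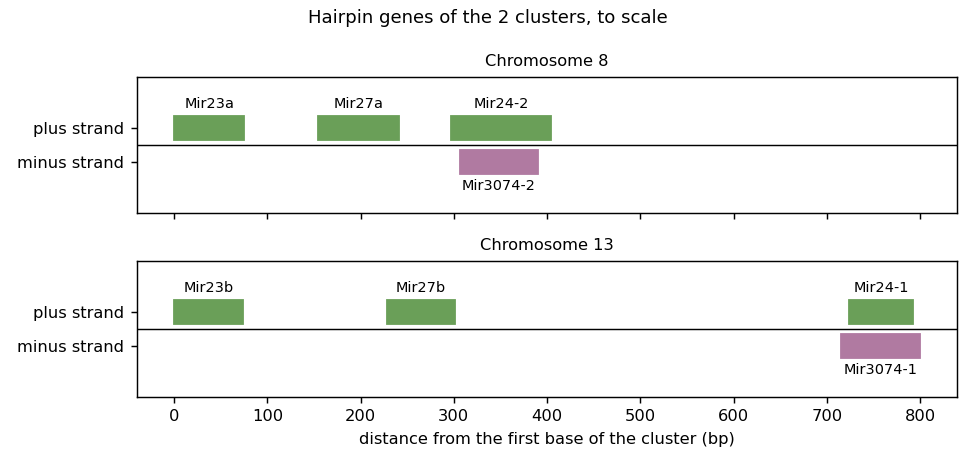
Hairpin genes of both clusters drawn to scale, with distance in bp from the first base of Mir23a (top) or Mir23b (bottom) on the x axis and strand on the y axis. The chromosome 8 hairpins sit within 404 bp and the chromosome 13 hairpins within 792 bp, and each miR-24 gene faces a miR-3074 gene on the other strand.

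By assigned reads, the miR-23 genes were the most abundant members in both libraries. Reads that map to several places, among them those wholly in the run shared by the miR-24 genes, are not counted. Mir23b had 67499 reads or 23736 CPM in replicate 1 and 63297 reads or 20551 CPM in replicate 2, a mean of 22143 ± 2252 CPM (SD, n = 2). It ranked 12 of 2202 genes in each library. Mir23a had 63212 reads or 22228 CPM in replicate 1 and 37035 reads or 12024 CPM in replicate 2, a mean of 17126 ± 7216 CPM. It ranked 14 in replicate 1 and 20 in replicate 2. The ranges of Mir23b and Mir23a over the libraries overlapped, while within each library Mir23b was the higher, with 1.07 reads per read of Mir23a in replicate 1 (exact 95% interval 1.06 to 1.08) and 1.71 in replicate 2 (1.69 to 1.73). Together they held 89.5% of the assigned reads of the 7 members in replicate 1 and 86.5% in replicate 2.

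The miR-27 genes were lower and nearly level between the libraries. Mir27b had 12171 reads or 4280 CPM in replicate 1 and 12678 reads or 4116 CPM in replicate 2, a mean of 4198 ± 116 CPM (SD, n = 2). Mir27a had 2202 reads or 774 CPM in replicate 1 and 2401 reads or 780 CPM in replicate 2, a mean of 777 ± 3.67 CPM. The ranges of the miR-27 genes overlapped neither each other nor those of the miR-23 genes. Mir27b ranked 41 in replicate 1 and 44 in replicate 2, and Mir27a ranked 98 and 101.

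The genes of miR-24 and the gene opposite had few assigned reads. Mir24-2 had 783 reads or 275 CPM in replicate 1 and 346 reads or 112 CPM in replicate 2. Mir24-1 had 146 reads or 51.3 CPM in replicate 1 and 251 reads or 81.5 CPM in replicate 2. Mir3074-1 had 61 reads or 21.5 CPM in replicate 1 and 12 reads or 3.90 CPM in replicate 2. The ranges of these 3 genes did not overlap, and the libraries were not ordered alike, since Mir24-1 was higher in replicate 2 and the other two in replicate 1. The order of mean levels from Mir23b to Mir3074-1 was the same per 100 bases of hairpin, where Mir23b had 29923 CPM, Mir23a 22835 CPM, Mir27b 5751 CPM, Mir27a 893 CPM, Mir24-2 181 CPM, Mir24-1 97.7 CPM and Mir3074-1 14.9 CPM.

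**Figure D2:**
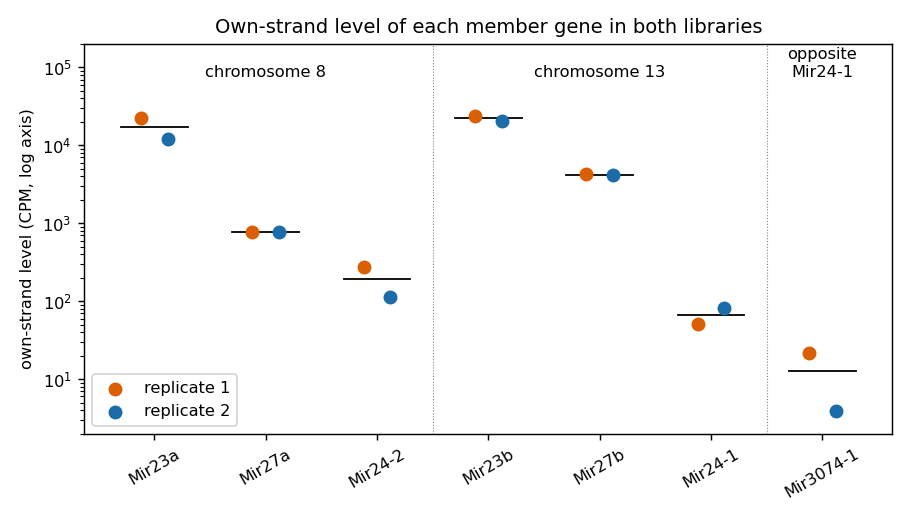
Own-strand level in CPM (log axis) of the 7 members, with 1 point per library and a bar at the mean. The miR-23 genes lie between 12024 and 23736 CPM, above every other member, and the points of Mir27a and Mir27b nearly coincide while those of Mir23a, Mir24-2 and Mir3074-1 stand apart.

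The chromosome 13 cluster yielded more assigned reads than the chromosome 8 cluster in both libraries. Its 3 genes reached a sum of 28067 CPM in replicate 1 and 24748 CPM in replicate 2, a mean of 26408 ± 2347 CPM (SD, n = 2), against 23278 CPM and 12916 CPM for the 3 genes on chromosome 8, a mean of 18097 ± 7327 CPM. The ranges of the sums did not overlap. The chromosome 13 genes held 54.7% of the reads of both clusters in replicate 1 (exact 95% binomial interval 54.4 to 54.9) and 65.7% in replicate 2 (65.4 to 66.0). Reads carried no recorded molecular identifier, so these intervals cover counting error only. The 7 members together took 5.14% of assigned reads in replicate 1 and 3.77% in replicate 2. In whole tissue, fewer cells of a type and less of an RNA per cell cannot be told apart.

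The share of the chromosome 13 gene differed between the 3 paralog pairs. For miR-27 it was stable: Mir27b held 84.7% of the reads of its pair in replicate 1 (exact 95% binomial interval 84.1 to 85.3) and 84.1% in replicate 2 (83.5 to 84.7), and the intervals overlapped. For miR-23 it was not: Mir23b held 51.6% in replicate 1 (51.4 to 51.9) and 63.1% in replicate 2 (62.8 to 63.4). Mir24-1 held 15.7% of the assigned reads of the miR-24 pair in replicate 1 (13.4 to 18.2) and 42.0% in replicate 2 (38.0 to 46.1). These shares leave out reads that lie wholly in the shared run. Reads wholly in a run that both genes of a pair share are missing from the miR-23 and miR-27 shares as well. In the miR-23 and miR-27 pairs the chromosome 13 gene held most of the assigned reads in both libraries, and in the miR-24 pair the chromosome 8 gene did.

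**Figure D3:**
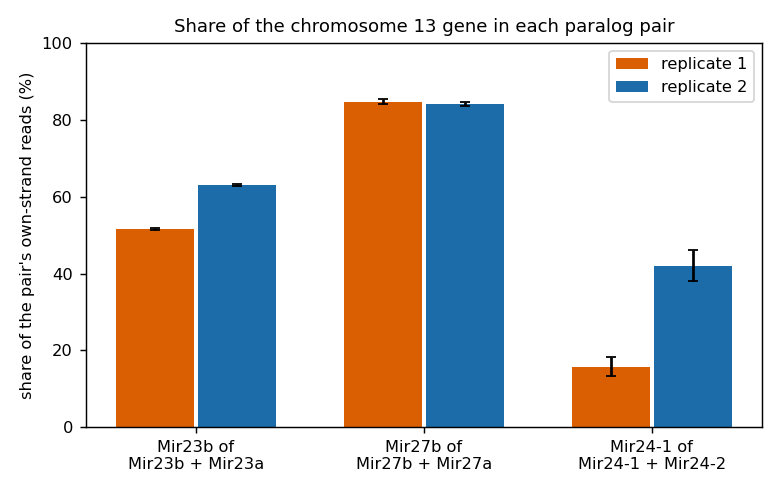
Share of the chromosome 13 gene in the own-strand reads of each paralog pair, in percent, with 1 bar per library and exact 95% binomial intervals as error bars. The Mir27b bars stand at 84.7% and 84.1%, while those of Mir23b (51.6% and 63.1%) and Mir24-1 (15.7% and 42.0%) differ by more than their intervals.

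Ratios between genes of 1 cluster do not depend on how the libraries are scaled. On chromosome 13 there were 5.55 reads of Mir23b per read of Mir27b in replicate 1 (exact 95% interval 5.44 to 5.65) and 4.99 in replicate 2 (4.90 to 5.09). On chromosome 8 there were 28.7 reads of Mir23a per read of Mir27a in replicate 1 (27.5 to 30.0) and 15.4 in replicate 2 (14.8 to 16.1). Reads of Mir27a per read of Mir24-2 numbered 2.81 in replicate 1 (2.59 to 3.06) and 6.94 in replicate 2 (6.20 to 7.79). Reads of Mir27b per read of Mir24-1 numbered 83.4 in replicate 1 (70.8 to 98.8) and 50.5 in replicate 2 (44.6 to 57.5). Counts of Mir24-2 and Mir24-1 lack the reads wholly in their shared run. Ratios to these genes are therefore of assigned reads and give no ratio of mature miRNAs. In none of these 4 ratios did the intervals of the libraries overlap, and the change was smallest for Mir23b over Mir27b.

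Set against other neighbours, the shift within the chromosome 8 cluster was not the largest. Of 30 pairs of neighbouring miRNA genes on 1 strand with a gap of up to 1000 bp and at least 1000 counts each, the log2 ratios between the libraries differed by a median of 0.63 within a pair. Mir23a and Mir27a differed by 0.90, and 10 other pairs by at least as much, among them Mir27a with Mir24-2 at 1.30 and Mir296 with Mir298 at 2.33. Mir23b and Mir27b differed by 0.15, one of the 4 smallest differences. These pairs share the same 2 libraries and are given as a description. For Mir24-2 only reads that reach outside the run shared with Mir24-1 are counted.

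Between the libraries, 5 members were higher in replicate 1, 1 was lower and 1 did not pass the test. An exact two-sided binomial test on own-strand reads was used, with Benjamini-Hochberg adjustment at 0.05 over 444 genes whose 2 libraries together held 10 counts or more. All 7 members had that many. The test compares these libraries, not conditions, against counting error only, and it called 59.0% of all tested genes, 30.4% higher in replicate 1 and 28.6% lower. The median log2 ratio, replicate 1 over replicate 2 with 0.5 counts added, was 0.21 over the 7 members and -0.073 over all tested genes. The median size of the log2 ratio, sign aside, was 0.66 over the members and 0.56 over all tested genes. It was 0.46 over the 257 genes averaging at least 100 counts per library, which every member but Mir3074-1 reached.

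Mir23a was 1.85-fold higher in replicate 1, a log2 ratio of 0.89 with an exact 95% counting interval of 0.87 to 0.91. Among the 23 genes averaging 10000 CPM or more, 5 had a log2 ratio of at least this size, Mir23a included. Mir24-2 was 2.45-fold higher in replicate 1 (log2 ratio 1.29, interval 1.11 to 1.48). Mir3074-1 had the largest ratio of the members, 2.41 on the log2 scale, and on 61 and 12 reads its interval ran from 1.55 to 3.49. Mir23b was 1.16-fold higher in replicate 1 (log2 ratio 0.21, interval 0.19 to 0.22). Mir24-1 was lower in replicate 1 by the exact binomial test, with a log2 ratio of -0.66 (interval -0.97 to -0.37, adjusted p = 1.83e-05).

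The miR-27 genes lay close to 0. By the exact binomial test Mir27b had a log2 ratio of 0.056 (adjusted p = 0.00432), which turned to -0.049 (adjusted p = 0.0138) with Mir122 left out of the totals. Mir27a had a log2 ratio of -0.0096, interval -0.094 to 0.074, with an adjusted p = 0.870 by the exact binomial test. Its sign was positive with TMM factors, DESeq2 size factors or the counts without strand. Without Mir122 in the totals Mir27a passed the same exact test at -0.12 (adjusted p = 0.0133). The order of the members by ratio does not depend on the totals, since they move every log2 ratio by the same amount.

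Allowing for a spread between libraries ended these calls. With the biological coefficient of variation of 0.393 that edgeR estimated from the same 2 libraries, its exact negative binomial test called 0 members and 2 of all tested genes at an adjusted p under 0.05. At an unadjusted p under 0.05 it listed 1 member, Mir3074-1, and 24 genes in all. That spread comes from the libraries being compared, so the test is circular. The adjusted p of Mir3074-1 was 0.545 in the edgeR exact test, and that of each other member was 1.

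**Figure D4:**
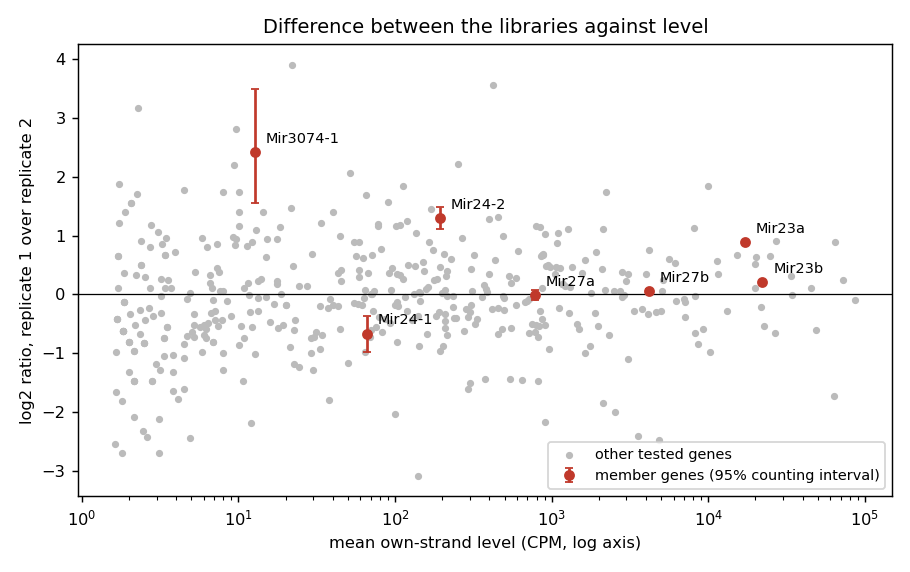
Log2 ratio of replicate 1 over replicate 2 against mean own-strand level in CPM (log axis), with members in red with exact 95% counting intervals and other tested genes in grey. Mir27a and Mir27b lie at -0.0096 and 0.056, Mir23a at 0.89, and Mir24-2 and Mir24-1 on opposite sides of 0 at 1.29 and -0.66.

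Markers of other cell types also moved between the libraries. None of the 8 genes of the endothelial and angiogenesis-linked list was at 0. By the exact binomial test 6 of them were higher in replicate 1 and 2, Mir132 and Mir92-1, the gene of miR-92a-1, were lower. Of all tested genes, 59.0% were called by this test, 30.4% higher in replicate 1 and 28.6% lower. The list had a summed level of 131981 CPM in replicate 1 and 76120 CPM in replicate 2, and a median log2 ratio of 0.49. Mir126a, the defining endothelial miRNA, had 84263 CPM in replicate 1 and 45250 CPM in replicate 2, a log2 ratio of 0.90. The members were spread around it, with Mir3074-1 at 2.41, Mir24-2 at 1.29, Mir23a at 0.89 and Mir23b at 0.21. Mir27b was at 0.056, Mir27a at -0.0096 and Mir24-1 at -0.66. Mir10a had 30132 CPM in replicate 1 and 19211 CPM in replicate 2, Mir130a 11200 CPM and 5126 CPM, and Mir100 3407 CPM and 2691 CPM. Mir122 had a log2 ratio of -1.73, and Mir206, a skeletal muscle miRNA, one of -1.85. The part of these cell types in the ratios of the members was not tested.

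The smaller marker lists differed too. Calls here are by the exact binomial test, which called 59.0% of all tested genes. The striated muscle list of 5 genes had a summed level of 920 CPM in replicate 1 and 3306 CPM in replicate 2, nearly all of it Mir206, with Mir133a-2 at 0. The erythroid list had a summed level of 720 CPM in replicate 1 and 322 CPM in replicate 2, but its 3 genes were split, with Mir451a and Mir144 higher in replicate 1 and Mir486 lower. Leukocyte markers had a summed level of 1044 CPM in replicate 1 and 1547 CPM in replicate 2, with Mir150 and Mir155 of the 4 genes lower in replicate 1 and 2 that did not pass. The 6 epithelial markers had a summed level of 227 CPM in replicate 1 and 425 CPM in replicate 2, with 4 lower in replicate 1 and 2 that did not pass. The smooth muscle and fibroblast list had a summed level of 40274 CPM in replicate 1 and 34044 CPM in replicate 2, where Mir143 was higher in replicate 1, Mir145a and Mir214 were lower and Mir199a-1 was at 0, for a median log2 ratio of -0.31. Of the 7 neuronal genes, 4 were at 0 in both libraries, and the list summed to 766 CPM and 457 CPM, nearly all of it Mir137. Reads that map to several places go to no gene. A 0 for a numbered copy, as of Mir124a, Mir9, Mir133a or Mir199a, therefore does not show absence. How many such reads these lists lost was not analysed. Among the neuroendocrine genes Mir7-1 and Mir7b were higher in replicate 1, and Mir375 did not pass.

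The gene opposite Mir24-1 was seen by counting each strand apart. Mir3074-1 held 29.5% of the own-strand reads of its pair with Mir24-1 in replicate 1, 61 of 207 reads (exact 95% binomial interval 23.4 to 36.2), and 4.56% in replicate 2, 12 of 263 reads (2.38 to 7.83). The intervals did not overlap. Its miR-3074-5p, printed above, faces miR-24-3p over 20 bases and occurs whole in Mir3074-2 as well, so reads of it map to several places. On chromosome 8, Mir3074-2 faces Mir24-2 in the same way and had 0 own-strand reads in both libraries, against 783 and 346 for Mir24-2. For counting error, levels as high as 1.05 CPM in replicate 1 or 0.974 CPM in replicate 2 could still give 0 reads.

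The other counting columns show the same reads from the other side. Mir3074-1 had 146 and 251 reads in the opposite-strand column, the own-strand reads of Mir24-1, and Mir24-1 had 61 and 12 there. Without strand, all 4 of these genes were listed at 0 in both libraries, as reads where genes overlap are set apart as ambiguous. Mir23a, Mir27a, Mir23b and Mir27b had 0 opposite-strand reads and identical counts with and without strand, so their read counts did not depend on the column.

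**Figure D5:**
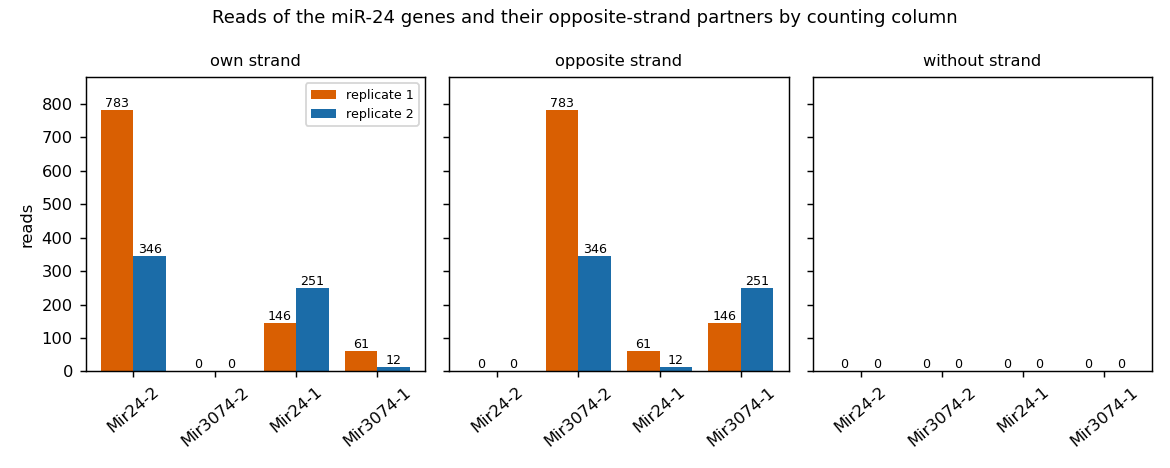
Reads of the miR-24 genes and of the miR-3074 genes opposite them in the own-strand, opposite-strand and strandless counting columns, with 1 bar per library labelled with its count. Own-strand and opposite-strand bars mirror each other within a pair, Mir3074-2 has 0 own-strand reads, and every strandless bar is at 0.

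Few other genes carried a seed of the members. In the RefSeq table, 4 genes outside the clusters had a mature sequence with the miR-24-3p seed, Mir6413, Mir6410, Mir6369 and Mir5124b, and each had 0 reads in both libraries. None of the listed mature sequences outside the clusters had the 7-base seed of miR-23a-3p or of the miR-27-3p pair. The table is not complete, so other carriers of these seeds are not analysed here.

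By level in the 2 libraries, the genes nearest to Mir23a were Mir99a, Mir335 and Mir26b. Likeness was the larger of the 2 differences in log2(CPM + 1), and it was 0.25 for Mir99a, which had 18652 CPM in replicate 1 and 11672 CPM in replicate 2. The genes nearest to Mir23b were Mir127, Mirlet7d and Mir26b, with a largest difference of 0.20 for Mir127 at 20667 CPM in replicate 1 and 19269 CPM in replicate 2. With 2 libraries this likeness describes levels only.

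Other miRNAs linked to adrenal steroid synthesis or to the pituitary hormone ACTH were present beside the members. Of the 14 genes listed, 13 were tested, 4 were higher in replicate 1, 7 were lower and 2 did not pass, with a median log2 ratio of -0.31. The same exact binomial test called 59.0% of all tested genes, 30.4% higher in replicate 1 and 28.6% lower. Mir335, from the imprinted Mest locus, had 24340 CPM in replicate 1 and 15710 CPM in replicate 2. Mir10b had 12914 CPM in replicate 1 and 10127 CPM in replicate 2. Mir21a had 6869 CPM in replicate 1 and 13582 CPM in replicate 2, opposite in direction to Mir23a. Mir125a, reported with miR-24 as a regulator of aldosterone synthase in human cells, had 5157 CPM in replicate 1 and 4943 CPM in replicate 2, between the levels of Mir27b and Mir23a.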

How the data were processed

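Small RNA was sequenced from 2 adrenal gland libraries after selection for fragments below 30, per the labels. Per the file headers, the deposited values are raw read counts for miRNA genes of GENCODE M21 on the mm10 assembly. Aligner and counter: not given in the sources used here. The files hold 3 count columns, read from their values as without strand, own strand and opposite strand, and 4 special rows that were left out of totals. In replicates 1 and 2, unmapped reads made up 26.4% and 32.0% of the file, reads with several places 27.5% and 25.9%, and own-strand reads outside genes 8.22% and 7.54%.

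Own-strand counts were scaled to CPM over assigned reads. Members and gene lists were chosen with earlier results of these data known. All members were named, with the 3 genes nearest to Mir23a and Mir23b, genes sharing a seed, partners on the other strand and up to 4 leading genes of each list. Mir132, Mir92-1, Mir206, Mir296, Mir298 and single marker genes were named after their values were seen. Mir92-1 was matched by its RefSeq synonym. Libraries were compared by an exact binomial test with Benjamini-Hochberg adjustment. With 1 group there are no residual degrees of freedom for a replicated test. Single replicates, other scalings, minimums and pseudocounts, the strandless column and the exact test of edgeR were alternatives. The comparison of neighbouring genes and the totals without Mir126a were added after the data were examined. Shared runs were sought in GENCODE hairpins on both strands, leaving out genes at the same place. The test was checked on simulated data drawn with counting error only, so the check does not cover a spread between libraries. Software was Python 3.11.15 with scipy 1.17.1, pandas 2.3.3, numpy 2.4.6, Biopython 1.88 and matplotlib 3.10.9, and R 4.3.3 with DESeq2 1.42.0 and edgeR 4.0.16.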

Additional observations from a re-analysis of the deposited data

How the results depend on the processing

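Of 32 alternative values of the sums, shares and count of called members, 25 stayed within the SD of the libraries or within 1.5 times of a count; single libraries do so by construction. Of 66 alternative log2 ratios, 54 kept their direction and call. Among these alternatives, other count minimums and pseudocounts left reads and totals unchanged, so they could barely move a direction or call. Called members numbered 3 of 4 tested without strand, where genes that overlap are at 0, and 0 in the exact negative binomial test, where each of the 6 called members lost its call. The log2 ratio of Mir27a was 0.066 without strand, 0.062 with TMM factors, 0.065 with DESeq2 size factors and 0.051 without Mir126a in the totals, against -0.0096, and that of Mir27b was -0.049 without Mir122. Mir23a ranged from 0.78 to 0.96 and Mir23b from 0.10 to 0.28. Over all reads in the file the sums were 6644 CPM (chromosome 8), 9598 CPM (chromosome 13) and 16247 CPM (7 members), a larger denominator. Without strand they were 32515 CPM for chromosome 13 and 54741 CPM for the 7 members, over fewer assigned reads. Single libraries gave a chromosome 13 share of 54.7% to 65.7% and a Mir3074-1 share of 4.56% to 29.5%. With a minimum of 100 counts for each neighbour, 18 other pairs of 53 differed by at least as much as Mir23a and Mir27a. Among the members, low read numbers limit Mir3074-1 and Mir24-1 most. The loss of reads that map to several places limits these genes and Mir24-2 as well.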
